A study of Mus musculus with 30 samples.

Results

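The protein-coding HOX genes of clusters A to D were followed in mouse soleus, a calf muscle of the hindlimb. Members were all genes of the counts table whose symbol is Hox, a cluster letter and a number, without antisense transcripts, which gave 39 of 56980 genes. The HoxA cluster on chromosome 6 held 11 of them, HoxB on chromosome 11 held 10, HoxC on chromosome 15 held 9 and HoxD on chromosome 2 held 9. All animals were C57BL/6J mice aged 3 to 4 months, and every group carried floxed alleles of both catalytic subunits of the energy sensor AMP-activated protein kinase, AMPKalpha1 and AMPKalpha2. HU mKO mice (8 libraries) carried a muscle deletion of both subunits, per the labels, and spent 4 weeks with the hindlimbs unloaded, which takes the weight of the body off the hind legs. HU Ctrl mice (7 libraries) carried the floxed alleles without Cre and were unloaded for as long. AMB mKO mice (7 libraries) had the same muscle deletion but walked freely for 4 weeks, and AMB Ctrl mice (8 libraries) were freely walking floxed mice without Cre. Total RNA of soleus was sequenced, so expression was measured in muscle fibres and all other cells of the tissue together. Which promoter drove Cre is not given in the sources used here. Because the controls had no Cre, loss of AMPK and presence of Cre cannot be told apart.

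HOX proteins are homeodomain transcription factors whose genes lie in the clusters in the order in which they act along the body. Low paralog numbers pattern the hindbrain and neck, middle numbers the trunk, and high numbers the lumbar, sacral and tail regions and the segments of the limb. Paralog group 10 is tied in the mouse to the upper leg and lumbar spine, group 11 to the lower leg, where the soleus lies, and group 13 to the foot and the tail end. Adult muscle, tendon and connective tissue keep part of the HOX code of the position in which they arose, and HOX proteins bind DNA together with partners of the PBX and MEIS families.

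The promoters of 3 genes of the HoxD cluster are shown because these genes span what the libraries held: Hoxd8 and Hoxd9 were both transcribed and called lower in unloaded soleus averaged over genotypes, and Hoxd13, at the end of the cluster that acts in the foot, had no read. The windows run from 250 bases before the RefSeq transcription start to 50 after it, on the plus strand of chromosome 2 in build GRCm38.p6, and are credited to RefSeq. They lie at chr2:74704365-74704664 for Hoxd8, at chr2:74697513-74697812 for Hoxd9 and at chr2:74667975-74668274 for Hoxd13. Capitals mark each match to CCAAT or TATAAA on either strand.
Hoxd8: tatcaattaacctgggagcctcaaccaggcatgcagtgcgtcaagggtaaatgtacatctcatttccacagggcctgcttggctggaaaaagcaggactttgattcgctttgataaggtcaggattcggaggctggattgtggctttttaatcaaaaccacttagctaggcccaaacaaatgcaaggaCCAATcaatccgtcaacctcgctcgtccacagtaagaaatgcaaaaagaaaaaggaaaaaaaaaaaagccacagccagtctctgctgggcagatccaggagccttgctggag
Hoxd9: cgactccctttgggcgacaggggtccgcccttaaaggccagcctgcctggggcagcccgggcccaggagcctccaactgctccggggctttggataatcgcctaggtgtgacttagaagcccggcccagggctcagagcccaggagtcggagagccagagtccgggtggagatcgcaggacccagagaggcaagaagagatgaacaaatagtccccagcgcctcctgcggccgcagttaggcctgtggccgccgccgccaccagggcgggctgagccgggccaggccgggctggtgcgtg
Hoxd13: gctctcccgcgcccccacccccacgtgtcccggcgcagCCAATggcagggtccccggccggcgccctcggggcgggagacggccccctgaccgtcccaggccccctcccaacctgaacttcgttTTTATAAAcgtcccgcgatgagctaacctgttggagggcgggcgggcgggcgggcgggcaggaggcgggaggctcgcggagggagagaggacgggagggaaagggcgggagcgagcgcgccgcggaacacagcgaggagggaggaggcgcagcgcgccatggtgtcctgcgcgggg
The Hoxd8 window had a CCAAT match at base 189, 6 CpG dinucleotides and 46.7% G and C. The Hoxd9 window matched none of the motifs searched and held 20 CpG at 68.3% G and C. The Hoxd13 window, of the gene with no read, had CCAAT at base 39, overlapping TATAAA matches of both strands at bases 125 and 127, 37 CpG and 74.3% G and C.

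Over the 24 windows of 22 members in the RefSeq table, the median was 14.5 CpG and 57.7% G and C. Over all 32851 windows of the same length it was 7 CpG and 52.7%. Most of the HOX windows belong to HoxA and HoxD genes. Hoxc4 was the only HoxC gene with a window, and Hoxc10, Hoxb5 and Hoxb6 had none, so the windows do not stand for all clusters. CCAAT, searched on both strands, was in 62.5% of HOX windows and 37.4% of all windows. TATAAA was in 16.7% of HOX windows and 13.6% of all, and the joint HOX and PBX motif TGATNNAT in 16.7% and 8.85%. Among HOX windows, CCAAT was in 9 of 18 from members that passed the expression filter and in 6 of 6 from members that did not. These matches describe the letters in the windows only.

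The 30 libraries held 12.1 to 20.9 M counts on genes (M for 1000000), and 15 came from females and 15 from males. Levels are given as CPM (counts per 1000000 counts of a library, after scaling library sizes by TMM). Of the targeted genes, Prkaa2, which encodes AMPKalpha2, was at 56.0 to 112 CPM in HU mKO and 15.0 to 85.2 CPM in AMB mKO soleus. In HU Ctrl soleus it was at 130 to 346 CPM and in AMB Ctrl soleus at 170 to 258 CPM. Prkaa1, which encodes AMPKalpha1, was at 13.4 to 24.3 CPM in HU mKO and 8.21 to 36.2 CPM in AMB mKO soleus, against 22.4 to 30.4 CPM in HU Ctrl and 16.5 to 24.9 CPM in AMB Ctrl soleus. Its ranges overlapped, and it was called neither in HU mKO minus HU Ctrl nor in AMB mKO minus AMB Ctrl (edgeR's quasi-likelihood test, adjusted p = 1.00 and 0.891). Slow myosin Myh7, which defines soleus, was at 4310 to 18090 CPM in all libraries except AMB mKO replicate 2, which had 116 CPM. That library also had the highest summed level of 10 adipocyte markers, 18460 CPM, and the highest of 12 markers of fibro-adipogenic progenitors, 9235 CPM. Whether it is soleus muscle as labelled cannot be told from the files. Its HOX profile, described further on, stood apart as well, as did that of AMB mKO replicate 4. HOX changes called in unloaded soleus averaged over genotypes are therefore given with and without these libraries. So are other named HOX changes that leaving them out moved by over 1.5 times.

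27 of the 39 genes passed the filter on low counts, that is, enough counts in at least as many libraries as the smallest group has. Of the 12 that did not, 4 had no count in any library: Hoxb1 and Hoxd1, genes of the anterior end of their clusters, and Hoxd12 and Hoxd13, known from digit formation. A count of 0 among 480.1 M allows a level of up to 0.00625 CPM (3 counts, counting error only). Hoxb13, a tail-end gene, had 1 count in all, Hoxc12 had 5, and Hoxc13, known from hair and nails, had 28. Other members below the filter had low counts, such as 220 reads for Hoxb9, 130 for Hoxd3, 112 for Hoxb2 and 110 for Hoxb8. Of the Hoxd3 exon bases, 62.3% are shared with other genes on the same strand. How such reads were counted is not stated, so its count may not reflect its level. Just above the filter were Hoxb7 with 266 counts, Hoxa2 with 278, Hoxd11 with 328 and Hoxd10 with 390. Hoxa13 was the only member of paralog group 13 to pass, with 10 to 85 counts in each of the 30 libraries.

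Levels of different genes were compared as CPM per kilobase of exon, with all annotated exons of a gene joined, whether or not soleus uses them. Hoxc10 stood first at a mean of 20.97 CPM per kb and was the highest HOX gene in 29 of 30 libraries. Its part of the summed HOX level ranged from 9.63% to 41.1% over the libraries. Hoxd8, a trunk-group gene, followed with 6.11 CPM per kb and was second in 21 libraries. Then came a run of genes at similar levels: Hoxc11 at 4.07, Hoxc6 at 3.74, Hoxc9 at 3.49, Hoxa10 at 3.42, Hoxc4 at 3.16 and Hoxa6 at 3.07 CPM per kb. In all, 16 members averaged 1 CPM per kb or more. Among the neighbours in this order, Hoxc10 exceeded Hoxd8 by 2.69 times their pooled SD over libraries. Hoxa4 (1.69 CPM per kb) exceeded Hoxa9 (1.23 CPM per kb) by 1.03 times. That order rests on the lengths used, 1594 bases for Hoxa4 and 5580 for Hoxa9. In CPM, Hoxa9 was the higher, at a mean of 6.87 against 2.69. The other neighbours among these 16 differed by less than 1 pooled SD, which is the spread of single libraries. Their order changed between libraries: Hoxd8 was above Hoxc11 in 24 of 30 and Hoxc4 above Hoxa6 in 16 of 30. Whether their mean levels differ was not tested.

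**Figure D1:**
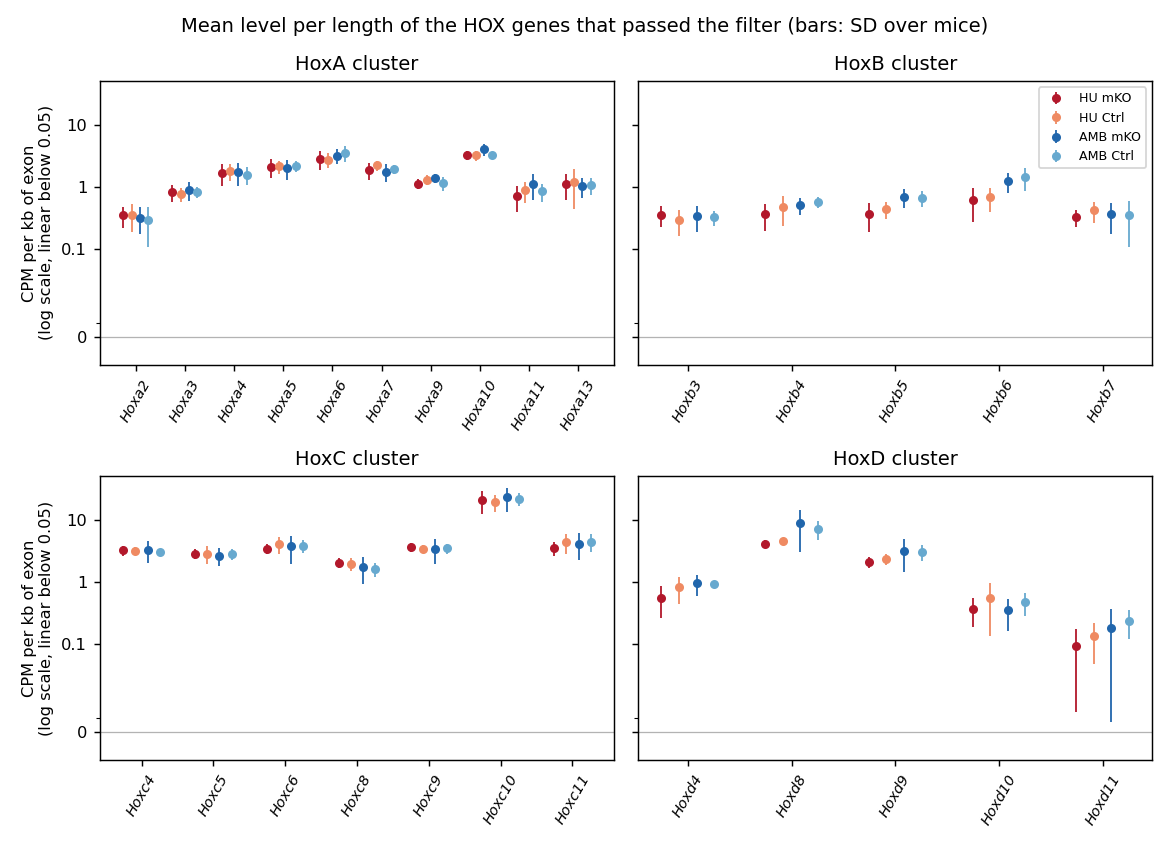
Mean level of the 27 HOX genes that passed the filter in CPM per kb of exon (vertical axis, log scale that is linear near 0), by cluster and, within a cluster, by paralog number (horizontal axis). Points are group means and bars the SD over 8 HU mKO, 7 HU Ctrl, 7 AMB mKO and 8 AMB Ctrl mice. Hoxc10 is highest at a mean of 20.97 CPM per kb, and HoxB genes are low.

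The clusters differed in their summed level. HoxC genes made up 56.4% of all HOX CPM per kb in the median library (27.0% to 65.3%), HoxA genes 24.4% (18.4% to 39.9%), HoxD genes 13.9% (8.12% to 27.1%) and HoxB genes 4.23% (1.87% to 8.73%). By position, paralog groups 9 to 13 held 56.1% in the median library, groups 5 to 8 held 33.6% and groups 1 to 4 held 11.5%. Summed over all 39 genes, HU mKO libraries ranged from 46.3 to 75.4 CPM per kb and HU Ctrl libraries from 55.6 to 76.4. AMB mKO libraries ranged from 33.5 in replicate 2 to 112 CPM per kb in replicate 4, and AMB Ctrl libraries from 57.0 to 90.6.

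Hoxc10 led the HoxC cluster. Hoxc10, known in the mouse from hindlimb and lumbar patterning, was at 20.0, 38.7 and 58.4 CPM (lowest, median and highest) in HU mKO and 17.2, 41.3 and 47.0 CPM in HU Ctrl soleus. It was at 6.15, 49.5 and 62.8 CPM in AMB mKO and 29.9, 38.9 and 55.5 CPM in AMB Ctrl soleus. The ranges of the 4 groups overlapped, and the lowest value belonged to AMB mKO replicate 2. Hoxc11, a gene of the lower leg and sacral group, was at 4.31, 7.51 and 9.26 CPM in HU mKO, 5.43, 9.20 and 14.4 CPM in HU Ctrl, 2.81, 8.20 and 14.6 CPM in AMB mKO, and 5.64, 8.31 and 13.2 CPM in AMB Ctrl soleus. Here too the groups overlapped throughout. Hoxc4, Hoxc5, Hoxc6, Hoxc8 and Hoxc9, which pattern the neck and chest, had group means between 4.51 and 9.62 CPM. Hoxc5 and Hoxc10 share exon bases on the same strand (5.4% of Hoxc5 and 8.7% of Hoxc10), so a small part of their reads cannot be told apart.

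Hoxa10 was the HoxA gene with the highest level per length and the steadiest of all members tested. Hoxa10, which acts in the upper leg and uterus, was at 8.06, 10.7 and 12.9 CPM in HU mKO, 8.72, 10.1 and 14.5 CPM in HU Ctrl, 10.2, 11.8 and 16.6 CPM in AMB mKO, and 8.92, 10.8 and 12.1 CPM in AMB Ctrl soleus. Its biological coefficient of variation, the spread between mice beyond counting error, was 0.174, against a median of 0.319 over the 27 members tested and 0.279 over all genes tested. The most variable member was Hoxd11, a lower-leg gene, at 0.65. Hoxa6 was at 1.77, 2.32 and 4.24 CPM in HU mKO, 1.66, 2.30 and 3.37 CPM in HU Ctrl, 1.86, 2.69 and 4.19 CPM in AMB mKO, and 1.79, 3.02 and 4.36 CPM in AMB Ctrl soleus, with the groups again overlapping. Hoxa11, the group 11 gene of this cluster, averaged 1.62 ± 0.711 CPM in HU mKO, 2.02 ± 0.742 in HU Ctrl, 2.54 ± 1.15 in AMB mKO and 1.93 ± 0.618 in AMB Ctrl soleus (SD, n = 8, 7, 7 and 8). Of its exon bases 35.0% overlap genes on the opposite strand, among them its antisense transcript Hoxa11os.

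**Figure D2:**
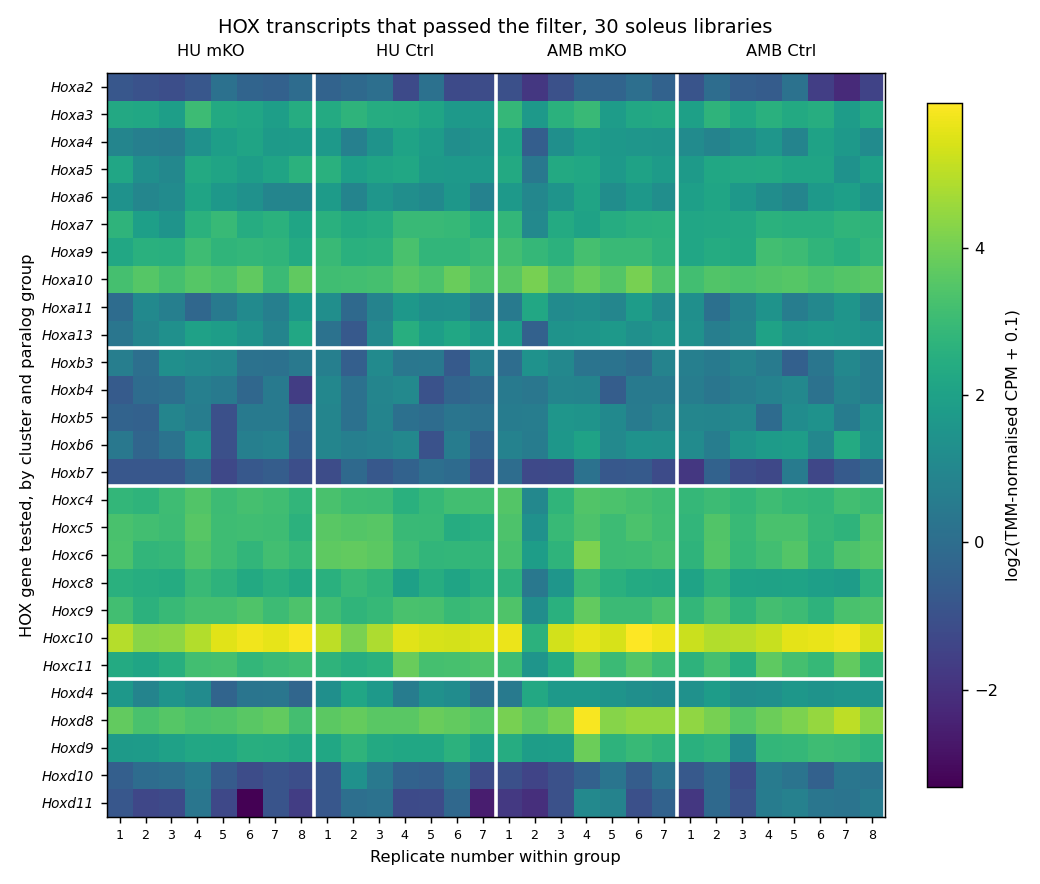
Level of the 27 HOX genes that passed the filter (rows, by cluster and paralog number) in each of the 30 libraries (columns, by group and replicate number), as log2 of TMM-normalised CPM plus 0.1 (colour bar). Hoxc10 is the brightest row in most libraries; the HoxC rows of AMB mKO replicate 2 are dark, and Hoxd8 is brightest in AMB mKO replicate 4 at 58.9 CPM.

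Averaged over both genotypes, Hoxd8, Hoxb6, Hoxb5 and Hoxd9 were lower in HU than in AMB soleus, and no member was higher. These 4 of 27 members tested are 14.8%. By edgeR's quasi-likelihood test with Benjamini-Hochberg adjustment, 28.5% of all 16932 genes tested were called in this comparison and 14.3% were called lower, so the share of HOX genes called lower was near that of all genes. The median log2 change was -0.05 over the members and -0.01 over all genes tested, and the members ranged from -0.99 to 0.29. Without AMB mKO replicates 2 and 4 the median over the members was -0.03.

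Hoxd8 (ENSMUSG00000027102), a gene of the middle of the HoxD cluster that is active in the early limb bud and trunk, changed in both genotypes. It was at 9.04, 11.0 and 13.4 CPM (lowest, median and highest) in HU mKO and 12.7, 19.2 and 58.9 CPM in AMB mKO soleus, and at 11.3, 12.2 and 14.4 CPM in HU Ctrl and 11.3, 18.7 and 33.1 CPM in AMB Ctrl soleus. The HU libraries sat close together below most AMB libraries: 6 of 8 HU mKO mice were below every AMB mKO mouse, and 7 of 8 AMB Ctrl mice were above every HU Ctrl mouse, but the ranges overlapped. The log2 change was -0.81 ± 0.16 (SE) averaged over genotypes, a level 1.75 times lower (edgeR's quasi-likelihood test, adjusted p = 0.000359). It was -0.95 ± 0.23 for HU mKO minus AMB mKO (adjusted p = 0.00977) and -0.66 ± 0.22 for HU Ctrl minus AMB Ctrl (adjusted p = 0.0494). Without AMB mKO replicate 4, which had 58.9 CPM, the change for HU mKO minus AMB mKO was -0.64 (adjusted p = 0.0150). Without both AMB mKO libraries that stand apart, the averaged change was -0.67 (adjusted p = 3.18e-05). With only the HU mKO and AMB mKO libraries in the fit, its adjusted p was 0.0862. The call in HU Ctrl minus AMB Ctrl lay at the threshold and was lost when any 1 of 17 libraries was left out (adjusted p up to 0.13, without AMB Ctrl replicate 7).

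Hoxb6 (ENSMUSG00000000690), a trunk gene that marks posterior limb and flank mesoderm in the embryo, had the largest change among the called members. It was at 0.386, 1.15 and 2.40 CPM in HU mKO and 1.40, 2.53 and 3.95 CPM in AMB mKO soleus, and at 0.403, 1.51 and 1.91 CPM in HU Ctrl and 1.42, 2.71 and 5.01 CPM in AMB Ctrl soleus. 6 of 8 AMB Ctrl mice were above every HU Ctrl mouse, and 4 of 7 AMB mKO mice were above every HU mKO mouse. The averaged log2 change was -0.99 ± 0.23 (edgeR's quasi-likelihood test, adjusted p = 0.00163), that is, 1.99 times lower, and -0.95 without AMB mKO replicates 2 and 4 (adjusted p = 0.00251). In HU Ctrl minus AMB Ctrl it was -1.15 ± 0.32 (adjusted p = 0.0192), and 0.0535 was the adjusted p without AMB Ctrl replicate 7, the library with 5.01 CPM. In HU mKO minus AMB mKO it was -0.83 ± 0.33 (adjusted p = 0.104), which did not pass.

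Hoxb5 (ENSMUSG00000038700), the next gene of the HoxB cluster and known from the shoulder and the enteric nervous system, was at 0.386, 0.981 and 1.76 CPM in HU mKO and 1.35, 1.67 and 2.89 CPM in AMB mKO soleus. In HU Ctrl soleus it was at 0.873, 1.04 and 1.79 CPM, and in AMB Ctrl soleus at 0.859, 1.87 and 2.55 CPM. The groups overlapped, with 6 of 8 HU mKO mice below every AMB mKO mouse and 5 of 8 AMB Ctrl mice above every HU Ctrl mouse. It fell by the averaged test only: -0.74 ± 0.20 on the log2 scale (edgeR's quasi-likelihood test, adjusted p = 0.00619), with -0.86 ± 0.30 in HU mKO minus AMB mKO (adjusted p = 0.0624) and -0.62 ± 0.29 in HU Ctrl minus AMB Ctrl (adjusted p = 0.159). Without AMB mKO replicates 2 and 4 the averaged change was -0.72 (adjusted p = 0.00986).

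Hoxd9 (ENSMUSG00000043342), which lies beside Hoxd8 and acts in the proximal limb, was at 3.25, 4.64 and 5.57 CPM in HU mKO and 3.53, 6.33 and 14.6 CPM in AMB mKO soleus. It was at 3.88, 4.54 and 6.53 CPM in HU Ctrl and 2.06, 6.88 and 8.41 CPM in AMB Ctrl soleus. The ranges overlapped, with 2 of 8 HU mKO mice below every AMB mKO mouse and 4 of 7 AMB mKO mice above every HU mKO mouse. In controls, 0 of 7 HU Ctrl mice were below every AMB Ctrl mouse and 6 of 8 AMB Ctrl mice were above every HU Ctrl mouse. The averaged log2 change was -0.48 ± 0.18 (edgeR's quasi-likelihood test, adjusted p = 0.0483), just past the threshold. It was -0.36 without AMB mKO replicate 4 (adjusted p = 0.0914) and -0.39 without replicates 2 and 4 of that group (adjusted p = 0.0563), and the call was lost when any 1 of 19 libraries was left out.

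**Figure D3:**
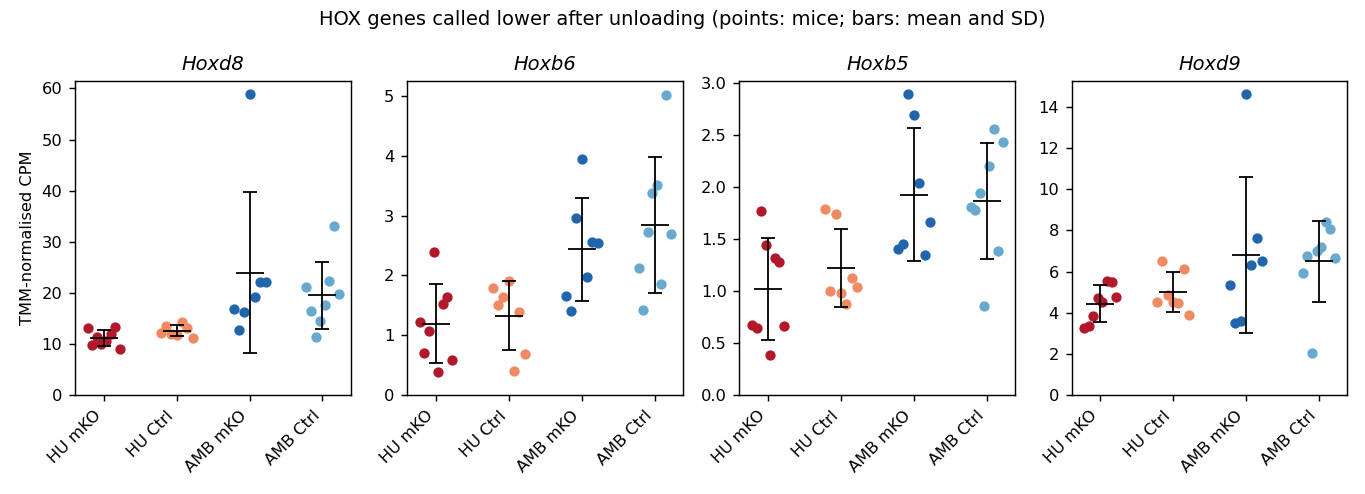
TMM-normalised CPM (vertical axes, linear from 0) of the 4 HOX genes called lower in HU soleus averaged over genotypes. Points are mice and bars the mean and SD of 8 HU mKO, 7 HU Ctrl, 7 AMB mKO and 8 AMB Ctrl mice; for Hoxd8 the HU mice lie between 9.04 and 14.4 CPM, and AMB mKO replicate 4 is at 58.9 CPM.

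Within each genotype fewer members passed. In HU Ctrl minus AMB Ctrl, 2 of 27 members (7.41%), Hoxb6 and Hoxd8, were called, both lower, where 11.1% of all genes tested were called and 5.74% were called lower. In HU mKO minus AMB mKO, 1 member (3.7%), Hoxd8, was called lower, where 10.1% of all genes were called and 4.75% were called lower. The groups overlapped for all 27 members in both comparisons, while they did not overlap for 3.56% of all genes tested in HU Ctrl against AMB Ctrl and for 1.51% in HU mKO against AMB mKO. The highest expressed gene did not pass: the averaged log2 change of Hoxc10 was -0.15 ± 0.22, with a 95% interval of -0.57 to 0.27, and -0.26 without AMB mKO replicate 2 (adjusted p = 0.204). Hoxa9 had the narrowest interval after Hoxa10: -0.26 to 0.17 for Hoxa9 and -0.34 to 0.01 for Hoxa10. Without AMB mKO replicates 2 and 4 the changes were -0.02 for Hoxa9 and -0.11 for Hoxa10, against -0.05 and -0.17 with them. Hoxd4 had -0.46 ± 0.21 (edgeR's quasi-likelihood test, adjusted p = 0.104) and Hoxd11 -0.77 ± 0.39 (adjusted p = 0.136), so neither passed. Without AMB mKO replicates 2 and 4 the value of Hoxd4 was -0.29. Of the exon bases of Hoxd4, 52.3% are shared with Hoxd3 on the same strand.

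The lower levels after unloading were also read within the study's other labels. These are the same mice that gave the calls, so the readings are not separate evidence. Within sex, the HU mean was below the AMB mean of the same genotype in 4 of 4 comparisons for Hoxd8, Hoxb6 and Hoxb5 and in 3 of 4 for Hoxd9. Without AMB mKO replicate 2 it was 4 of 4 for Hoxd9 too, but without replicate 4 alone it stayed 3 of 4. The added comparison rested on 1 AMB mKO female at 5.37 CPM, against a mean of 4.61 CPM in HU mKO females. For Hoxd8 the log2 ratios of these means were -1.30 in mKO males and -0.92 in Ctrl males, and -0.41 in both mKO and Ctrl females. The value in mKO males was -0.82 without AMB mKO replicate 4, and that in mKO females, which rested on 2 AMB mice, was -0.60 without replicate 2. Whether the ratios differ between sexes was not tested. The animal labels end in a letter, a, b or c, whose meaning is not given. Within letters, the HU mean was below the AMB mean in 6 of 6 comparisons for Hoxd8, Hoxb6 and Hoxb5. For Hoxd9 it was 5 of 6, and these counts held with and without the AMB mKO libraries that stand apart. The means rested on 2 or 3 mice each. Without those libraries, letters a and c had 1 AMB mKO mouse each.

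Markers of other cells were read in the same averaged test, where 14.3% of all genes were called lower and 14.2% higher. Of 12 endothelial markers 5 fell and none rose, and of 8 tenocyte markers 2 fell, among them Scx, the tendon transcription factor, with a log2 change of -1.71 ± 0.33 (edgeR's quasi-likelihood test, adjusted p = 0.000293). Summed tenocyte markers ranged from 108 to 1441 CPM in HU mKO, 103 to 2900 CPM in HU Ctrl, 60.1 to 2873 CPM in AMB mKO and 191 to 2429 CPM in AMB Ctrl soleus, and no list member was at 0 in all libraries. Of 9 pericyte and smooth muscle markers, Cspg4 and Tagln fell and Rgs5 rose, and in HU Ctrl minus AMB Ctrl 4 of the 9 fell, where 5.74% of all genes were called lower. 2 of 12 fibro-adipogenic progenitor markers fell (16.7%), a share near that of all genes, while none of 8 satellite cell, none of 12 macrophage, none of 10 adipocyte and none of 10 Schwann cell markers passed. Of the fibre genes, 4 of 12 slow ones fell, and 7 of 14 fast ones rose while 1 fell. Without AMB mKO replicates 2 and 4, 8 slow fibre genes fell, as did 3 pericyte and smooth muscle markers and 1 satellite cell marker, and 1 endothelial and 1 Schwann cell marker rose. Their part in the lower HOX levels was not tested. In whole tissue, fewer cells that express a HOX gene and less RNA per cell cannot be told apart.

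Knockout of AMPK in muscle came with no called change in a HOX gene. In AMB mKO minus AMB Ctrl, in HU mKO minus HU Ctrl and in the average of both, 0 of 27 members passed edgeR's quasi-likelihood test, and 0.0177% of all genes tested were called in each. At an unadjusted p below 0.05 there were 1, 0 and 0 members, against 7.62%, 1.78% and 5.97% of all genes, and DESeq2 and limma also called 0. The smallest p in AMB soleus was that of Hoxa10: 11.8 CPM (median) in AMB mKO and 10.8 CPM in AMB Ctrl, a log2 change of 0.33 ± 0.13 (edgeR's quasi-likelihood test, adjusted p = 0.593). Hoxa10 also had the smallest p in the average, with 0.17 ± 0.09 (adjusted p = 0.873). In HU soleus it was Hoxd4, with 0.694, 1.43 and 2.98 CPM in HU mKO and 1.04, 2.40 and 4.42 CPM in HU Ctrl, a log2 change of -0.55 ± 0.30 (adjusted p = 1.00), which was -0.28 without HU Ctrl replicate 2. For the leading genes, the 95% interval of the averaged log2 change was -0.34 to 0.50 for Hoxc10 and -0.28 to 0.33 for Hoxd8. Without AMB mKO replicates 2 and 4 the changes themselves were 0.19 for Hoxc10 and -0.12 for Hoxd8, against 0.08 and 0.03 with them. The median over the members was -0.07, against 0.02 over all genes tested.

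**Figure D4:**
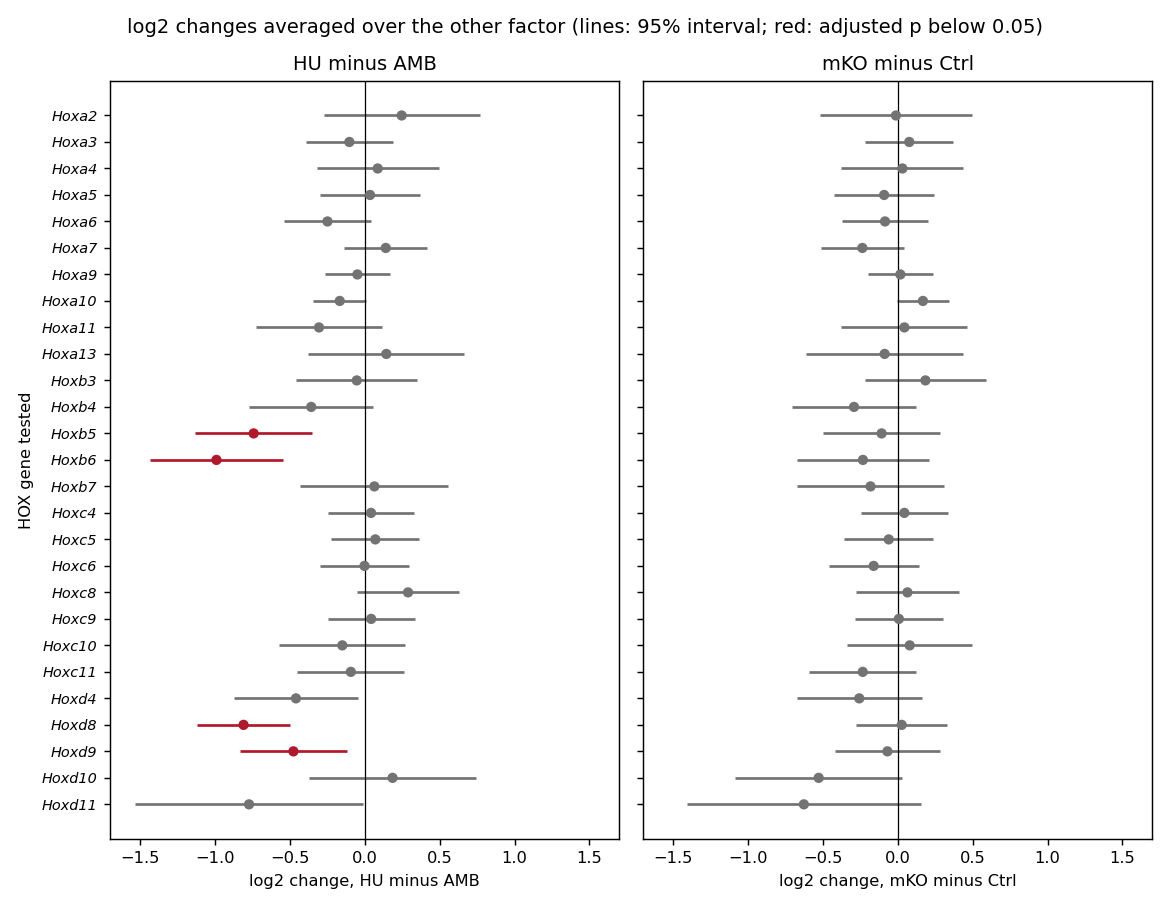
Log2 changes of the 27 HOX genes tested (rows, by cluster and paralog number), HU minus AMB averaged over genotypes on the left and mKO minus Ctrl averaged over loading on the right. Points are estimates, lines 95% intervals and red marks an adjusted p below 0.05: Hoxb5, Hoxb6, Hoxd8 and Hoxd9 on the left and no gene on the right.

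The response to unloading did not differ detectably between genotypes. The interaction, the change in mKO minus the change in Ctrl soleus, had 0 of 27 members and 0% of all genes called by edgeR's quasi-likelihood test. At an unadjusted p below 0.05 it had 0 members and 410 genes (2.42%). DESeq2 and limma called 0 members. Hoxa9, a gene of limb and blood development, had the smallest p with -0.46 ± 0.23 (adjusted p = 0.999). For Hoxd8 it was -0.29 ± 0.32, with a 95% interval of -0.92 to 0.34, so a difference in response as large as the averaged change is within the interval. Without AMB mKO replicate 4 the value was 0.03.

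Between sexes, 0 of 27 members were called, against 0.213% of all genes by edgeR's quasi-likelihood test; 1 member had an unadjusted p below 0.05, as had 12.6% of all genes, and DESeq2 and limma called 0. That member was Hoxa6, with a log2 change of -0.33 ± 0.15 for females minus males (adjusted p = 0.374). Most values leaned to lower levels in females: 25 of 27 members were below 0 and 2 above, where 50.5% of all genes were above, with a median of -0.17 against 0.00 over all genes tested. Without AMB mKO replicate 2 alone the median was -0.06 with 24 members below 0, and without AMB mKO replicates 2 and 4 it was -0.06 with 21 below 0. Without AMB mKO replicate 2 and HU mKO replicates 2 and 3, the 3 libraries highest in adipocyte transcripts, 19 members were below 0 and the median was -0.09. Females were 5 of 8 HU mKO, 3 of 7 HU Ctrl, 2 of 7 AMB mKO and 5 of 8 AMB Ctrl mice.

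2 libraries departed from the rest of their group in several HOX genes at once. The library labelled AMB mKO replicate 2 had the lowest level of all 30 libraries for 11 of 27 members: Hoxa4, Hoxa5, Hoxa7, Hoxd10 and all 7 HoxC genes tested. It had the highest level for Hoxa10 (16.6 CPM), Hoxa11 (4.71 CPM), Hoxb3 (2.58 CPM) and Hoxd4 (4.75 CPM). TMM scaling lowered all values of this library: 136 Hoxc10 counts among 13.6 M gave 6.15 CPM. Its Hoxd10 rested on 6 counts. The number of members at their lowest there depends in part on the scaling. Of the Hoxb3 exon bases, 52.9% overlap genes on the opposite strand. Relative to the median of the other 5 AMB mKO mice (without replicate 4), the log2 ratio was -3.09 for Hoxc10, -2.30 for Hoxc4 and 1.14 for Hoxa11, and Hoxa9 and Hoxb4 were close to 0 at -0.09 and -0.13. This library was last of 30 in summed slow fibre (539 CPM), fast fibre (3675 CPM) and tenocyte markers (60.1 CPM) and first in adipocyte, fibro-adipogenic progenitor and macrophage markers. HU mKO replicates 2 and 3, with the next highest adipocyte sums (7472 and 8174 CPM), had the lowest Hoxc10 of their group at 20.0 and 20.7 CPM. HU Ctrl replicate 2 had less still, 17.2 CPM, with an adipocyte sum of 2895 CPM, the lowest of its group. By Adipoq alone, 1 of the adipocyte markers, that library was not lowest. It had 12.0 CPM, against 0.206 CPM in HU Ctrl replicate 1. The libraries named here as low in Hoxc10 all carry the letter c, whose meaning is not given. Hoxc10 in letter c against other letters was at 17.2 to 32.9 against 41.3 to 47.0 CPM in HU Ctrl. In HU mKO it was at 20.0 to 30.2 against 29.5 to 58.4 CPM. It was at 6.15 and 40.9 against 42.7 to 62.8 CPM in AMB mKO, and at 29.9 to 37.0 against 37.0 to 55.5 CPM in AMB Ctrl. The part of the cell makeup or of the letter in these levels was not tested.

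AMB mKO replicate 4 had the highest level of all 30 libraries for 7 members: Hoxc6 (17.4 CPM), Hoxc8 (8.06), Hoxc9 (13.4), Hoxc11 (14.6), Hoxd8 (58.9), Hoxd9 (14.6) and Hoxd11 (1.98 CPM). Its Hoxc10, at 49.5 CPM, was at the median of its group. It was first of 30 in summed satellite cell markers (282 CPM) and had the highest Col1a1, the main fibrillar collagen, at 13330 CPM, against 54.8 to 5638 CPM in the others. Whether that goes with its HOX levels was not tested.

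**Figure D5:**
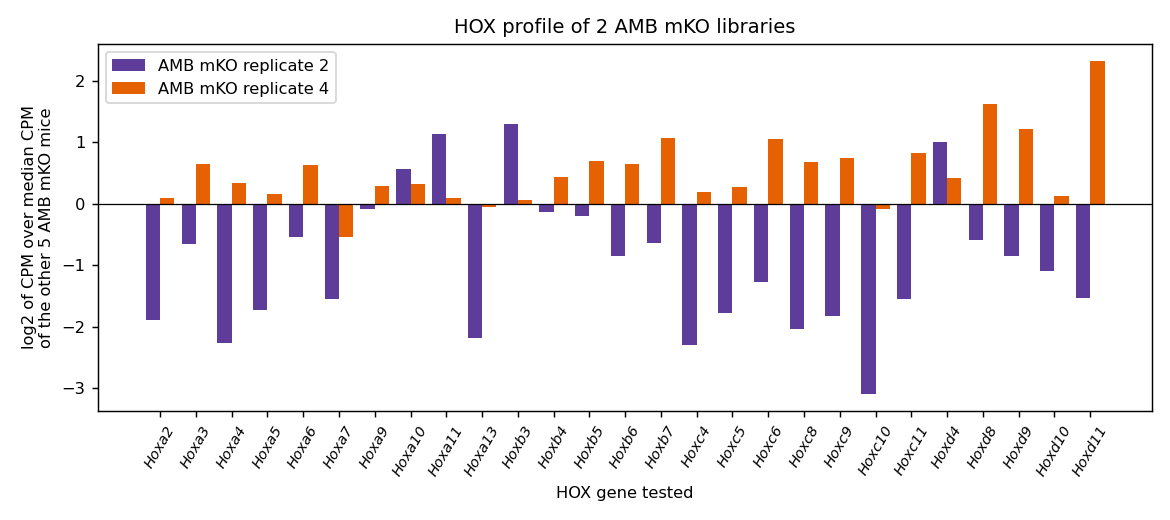
Log2 ratio of each of the 27 HOX genes tested (horizontal axis) in AMB mKO replicates 2 and 4 over the median CPM of the other 5 AMB mKO mice (vertical axis; bars start at 0). Replicate 2 is below 0 for every HoxC gene, down to -3.09 for Hoxc10, and replicate 4 reaches 1.62 for Hoxd8 and 2.33 for Hoxd11.

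The genes that work with, set or neighbour the HOX clusters were read from lists chosen for their known roles. The hindlimb selector Tbx4 was at a mean of 3.60 CPM and Pitx1, the other hindlimb selector, at 1.16 CPM, while the forelimb selector Tbx5 had 34 counts in all libraries together and was not tested. Cdx2 and Cdx4, which switch on trunk HOX genes in the embryo, and Evx2, next to Hoxd13, had no count. Of the 10 position factors tested, 1 rose after unloading by the averaged test: Tbx15, a T-box gene of fast muscle fibres, averaged 189 ± 72.4 CPM in HU mKO, 184 ± 62.7 in HU Ctrl, 118 ± 43.7 in AMB mKO and 113 ± 29.6 in AMB Ctrl soleus (SD, n = 8, 7, 7 and 8), with a log2 change of 0.71 ± 0.20 (edgeR's quasi-likelihood test, adjusted p = 0.00719). By the same test, Tbx15 passed in neither genotype alone (adjusted p = 0.104 in Ctrl and 0.0933 in mKO). Gdf11, a signal that sets the trunk-to-tail boundary, fell by 0.46 on the log2 scale (adjusted p = 0.0398), and the other 8 did not pass. Of all genes tested, 14.2% rose and 14.3% fell, so 1 of 10 in each direction was not above that share.

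Of 10 DNA-binding partners tested, 3 rose after unloading by the averaged test and none fell, with and without AMB mKO replicates 2 and 4. These were Tgif1 with a log2 change of 0.59 ± 0.15 (edgeR's quasi-likelihood test, adjusted p = 0.00362), Meis1 with 0.45 ± 0.14 (adjusted p = 0.0197) and Pknox1 with 0.29 ± 0.08 (adjusted p = 0.00847). Of 30 genes listed as HOX regulators, 10 rose and 6 fell, where 14.2% of all genes tested rose and 14.3% fell. Most are Polycomb and trithorax genes, which keep HOX genes off or on through histone marks, but Gmnn and Ctcf are not. Without AMB mKO replicates 2 and 4, 11 of the 30 rose and 3 fell, where 16.9% of all genes rose and 14.6% fell. Mtf2, a Polycomb subunit, averaged 27.5 ± 3.42 CPM in HU mKO, 25.6 ± 2.47 in HU Ctrl, 17.4 ± 2.34 in AMB mKO and 16.7 ± 2.27 in AMB Ctrl soleus and rose by 0.64 ± 0.07 on the log2 scale (adjusted p = 4.10e-07). Ezh1 rose by 0.38 ± 0.07, Kmt2a by 0.34 ± 0.06 and Kdm6a, a demethylase that lifts the Polycomb mark, by 0.33 ± 0.06. Cbx8, a reader of that mark, fell by 0.81 on the log2 scale. Gmnn, which is not a Polycomb or trithorax gene, fell by 1.29.

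Noncoding genes of the clusters were low and none of the 6 tested was called in any comparison. Of all genes tested, 28.5% were called in the averaged unloading test and 0.0177% in each genotype comparison. Hotair, a HoxC antisense transcript, averaged 1.49 ± 0.587 CPM in HU mKO, 1.55 ± 0.512 in HU Ctrl, 0.998 ± 0.436 in AMB mKO and 1.22 ± 0.475 in AMB Ctrl soleus. Its averaged log2 change was 0.47 ± 0.20 (edgeR's quasi-likelihood test, adjusted p = 0.0825). Beside the HoxD cluster, Lnpk, which encodes an endoplasmic reticulum protein, and Mtx2, a mitochondrial import protein, moved in opposite directions. Lnpk was at 56.2 to 111 CPM in HU mKO and 74.0 to 121 CPM in HU Ctrl, against 13.5 to 56.3 CPM in AMB mKO and 40.2 to 52.8 CPM in AMB Ctrl soleus. The groups barely overlapped in mKO mice and not at all in Ctrl mice, and the averaged log2 change was 0.98 ± 0.14 (adjusted p = 1.06e-05). Mtx2 averaged 23.3 ± 3.51 CPM in HU mKO, 24.9 ± 5.53 in HU Ctrl, 30.2 ± 8.32 in AMB mKO and 32.7 ± 3.38 in AMB Ctrl soleus, with an averaged log2 change of -0.37 ± 0.10 (adjusted p = 0.00722). The other 5 flanking genes tested did not pass in any unloading comparison.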

How the data were processed

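Soleus RNA of 30 mice was sequenced from stranded total RNA libraries, per the labels' protocols, whose other text concerns cells and people and was not used. The deposited values are raw counts per gene. Per the submitters' processing notes, reads were handled with STAR 2.7.9a, cutadapt 1.16, DESeq2 1.34.0 and featureCounts 1.6.3, listed without roles, and build GRCm39. How strand and reads shared by overlapping genes were treated is not stated in the sources at hand.

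Counts were fitted in R 4.3.3 with edgeR 4.0.16 (TMM, filterByExpr over the 4 groups, robust quasi-likelihood F test), with 1 term per group and sex, over all 30 libraries, and p-values were adjusted by Benjamini-Hochberg over all 16932 genes that passed; a call is an adjusted p below 0.05. 95% intervals are the estimate ± 1.96 SE. CPM are per M TMM-scaled counts. Exon lengths are those of GENCODE M21 on GRCm38, not the authors' build, and serve only to compare genes. limma 3.58.1 and DESeq2 1.42.0 were alternatives, beside other filters, covariates and left-out libraries. Libraries carry their own number and sex labels and are taken as separate mice; p-values measure the spread between these libraries. The script was tested on simulated data.

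Named genes were all members called, the 2 of each cluster with the highest level per length, and the member with the smallest p where none was called. From the other lists, called genes and defining members were named. The members and lists were chosen with earlier results of these data known. Some members and list genes are not reported here.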

Additional observations from a re-analysis of the deposited data

Results flagged for a closer look

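Of 108 sets of 1 HOX gene in 1 group, 11 held a mouse whose gap to the next was large for the range of its group (Dixon's criterion at 95%). Chance flags about 1 in 20 sets where values are independent and follow a normal curve. These sets share mice and some rest on low counts, so the 11 cannot be set against that rate. 6 of the 11 belong to AMB mKO replicates 2 and 4. AMB mKO replicate 2 was lowest for Hoxc10 at 6.15 CPM (others 40.91 to 62.81), for Hoxc5 at 2.49 CPM (others 7.68 to 10.27) and for Hoxa13 at 0.63 CPM (others 2.44 to 3.45). AMB mKO replicate 4 was highest for Hoxd8 at 58.92 CPM (others 12.71 to 22.14), for Hoxd9 at 14.61 CPM (others 3.53 to 7.64) and for Hoxc6 at 17.38 CPM (others 3.48 to 9.45). HU mKO replicate 4 was highest for Hoxa3 at 8.15 CPM (others 3.57 to 5.37) and for Hoxd11 at 1.16 CPM (others 0.00 to 0.47). HU Ctrl replicate 2 was highest for Hoxd10 at 2.51 CPM (others 0.35 to 1.24). In AMB Ctrl mice, replicate 5 was highest for Hoxb7 at 1.37 CPM (others 0.19 to 0.67) and replicate 3 lowest for Hoxd9 at 2.06 CPM (others 5.92 to 8.41).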

How the results depend on the processing

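The number of members counted as expressed was 27, and 23 with a mean of at least 1 CPM, 28 with 10 counts in 7 libraries and 27 with a count in all libraries. No setting turned the direction of a called change. The signs of values that did not pass could turn: 19 to 25 of 27 members were below 0 for females minus males over the settings that tested all 27, and 15 to 20 for the averaged unloading change. The averaged unloading count of 4 members was 3 to 5 when 1 library was left out; Hoxd8, Hoxb6 and Hoxb5 passed under all 39 alternatives run. For HU Ctrl minus AMB Ctrl the count of 2 was 1 with no low-count filter and 1 with sex left out, and 0 to 2 when 1 library was left out. For HU mKO minus AMB mKO the count of 1 was 2 with DESeq2, 3 with limma, 3 with sex left out, 3 with the title letter in the model, 0 with only the groups compared in the fit, 2 without the 3 libraries highest in adipocyte transcripts, and 1 to 2 when 1 library was left out (2 without AMB Ctrl replicate 4 or HU mKO replicate 3). The genotype, interaction and sex counts were 0 to 0 when 1 library was left out. Apart from the smaller sets of genes or mice, the cause was not tested.

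The call of Hoxd8 in HU Ctrl minus AMB Ctrl was lost without AMB Ctrl replicate 1, 2, 4, 5, 6, 7 or 8, AMB mKO replicate 5, HU Ctrl replicate 1, 2, 3, 4, 5 or 7, or HU mKO replicate 1, 2 or 3 (adjusted p 0.0510 to 0.13). That of Hoxd9 in the average was lost without AMB Ctrl replicate 2, 4, 5, 6, 7 or 8, AMB mKO replicate 4, 5 or 6, HU Ctrl replicate 1, 3, 4, 5 or 7, or HU mKO replicate 1, 2, 3, 4 or 5 (0.0537 to 0.0914), and with limma (0.111). The values without AMB mKO replicates 2 and 4 together, and those within sex or letter without either, were chosen after seeing the data. No paired analysis was possible because replicate numbers follow accession order and the animal numbers are not shared across groups. Intervals cover these mice. Before TMM scaling, a level of 1 CPM is about 12.1 to 20.9 counts in a library, and scaling shifts that number. In AMB mKO replicate 2, for example, 136 Hoxc10 counts gave 6.15 CPM.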
